A study of Rattus norvegicus with 12 samples.

Results

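This account concerns 10 genes of the endoplasmic reticulum (ER) protein folding machinery in the rat colon: Hspa5, Dnajb11, Hyou1, Sdf2l1, Hsp90b1, Pdia4, Pdia6, Fkbp11, Manf and Creld2. They were chosen by gene name among the gene spots of 12 microarrays because they were lower on a high-protein diet in these same arrays. Their diet differences therefore stand as a description, without a test. All 10 were among the 10449 genes measured well enough to be compared. The arrays held single-colour Cy3 signals from total RNA of tissue labelled colonic epithelium, from male Wistar rats weighing 180 to 200 g that ate 1 of the diets for 6 weeks. There were 6 arrays of high protein and 6 of normal protein. No genetic change or drug is named for either group, and the labels used here give neither the protein content of the diets nor the age of the rats. Nothing says that each array came from its own rat, so p-values measure only the spread between these samples, which may be technical.

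The ER is where secreted and membrane proteins are folded, joined by disulfide bonds and checked before transport to the Golgi. Its central chaperone, the Hsp70 family member BiP (Hspa5), is served by co-chaperones and nucleotide exchange factors and works beside GRP94 (Hsp90b1), disulfide isomerases and prolyl isomerases. When unfolded protein accumulates, the sensors Ire1, Perk and Atf6 start the unfolded protein response, in which the transcription factors Xbp1 and Atf6 bind ER stress elements in the promoters of many of these genes. In the colon this machinery is most used by mucus-secreting goblet cells and by antibody-secreting plasma cells.

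Promoter sequences are shown for the 5 genes in which a complete ER stress element was found, because it is a feature of known control. The element is already known from promoters of many genes of this kind. Its presence here is therefore a description and no independent finding. The windows come from RefSeq on the GRCr8 assembly and run from 250 bases before to 50 after the annotated gene start, 5′ to 3′ on the gene's own strand. Capitals mark the fixed letters of 3 motifs searched on both strands: ERSE, which is CCAAT and CCACG with 9 free bases between them, ERSE-II, which is ATTGG and CCACG with 1 free base between them, and the core of the unfolded protein response element, UPRE (TGACGTGG). In Hspa5 the window is chr3:38452766-38453065 on the plus strand, in Hsp90b1 chr7:23012244-23012543 on the minus strand, and in Creld2 chr7:121789134-121789433 on the plus strand. In Hyou1 it is chr8:53602632-53602931 on the plus strand, and in Dnajb11 chr11:91672751-91673050 on the minus strand. Hyou1 has a further annotated start, whose window at chr8:53602822-53603121 held none of these 3 motifs and is not printed. Positions given for Hyou1 refer to the printed window.
Hspa5: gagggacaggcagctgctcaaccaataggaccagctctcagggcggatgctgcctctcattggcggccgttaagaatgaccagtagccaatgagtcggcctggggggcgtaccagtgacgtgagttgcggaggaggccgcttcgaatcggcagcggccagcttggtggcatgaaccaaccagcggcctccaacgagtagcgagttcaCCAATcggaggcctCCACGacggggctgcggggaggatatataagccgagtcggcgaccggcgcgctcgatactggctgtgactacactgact
Hsp90b1: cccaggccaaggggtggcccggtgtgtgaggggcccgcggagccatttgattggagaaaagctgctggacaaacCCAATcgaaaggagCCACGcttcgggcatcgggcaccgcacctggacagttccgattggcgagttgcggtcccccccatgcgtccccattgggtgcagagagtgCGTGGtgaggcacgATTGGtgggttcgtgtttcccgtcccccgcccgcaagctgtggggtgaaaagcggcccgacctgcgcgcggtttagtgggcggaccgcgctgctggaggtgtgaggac
Creld2: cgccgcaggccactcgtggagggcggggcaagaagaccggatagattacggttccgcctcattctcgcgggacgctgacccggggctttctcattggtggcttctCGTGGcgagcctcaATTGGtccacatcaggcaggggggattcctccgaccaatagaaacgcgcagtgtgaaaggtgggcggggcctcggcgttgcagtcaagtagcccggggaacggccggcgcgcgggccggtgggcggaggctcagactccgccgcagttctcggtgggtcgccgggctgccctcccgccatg
Hyou1: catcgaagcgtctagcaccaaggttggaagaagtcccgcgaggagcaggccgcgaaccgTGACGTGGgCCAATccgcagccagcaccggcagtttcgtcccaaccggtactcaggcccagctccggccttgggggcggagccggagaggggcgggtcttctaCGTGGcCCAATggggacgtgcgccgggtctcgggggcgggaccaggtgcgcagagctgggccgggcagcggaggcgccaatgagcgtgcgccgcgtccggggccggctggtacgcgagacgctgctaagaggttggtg
Dnajb11: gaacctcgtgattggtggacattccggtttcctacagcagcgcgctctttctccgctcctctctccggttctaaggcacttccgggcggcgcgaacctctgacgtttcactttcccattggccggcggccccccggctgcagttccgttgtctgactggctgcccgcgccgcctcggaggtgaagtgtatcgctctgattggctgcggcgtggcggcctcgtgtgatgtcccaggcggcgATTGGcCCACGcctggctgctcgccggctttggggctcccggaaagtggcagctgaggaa

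ERSE was found in 3 of the 8 genes that had a window: Hspa5, Hsp90b1 and Creld2. Over all 33469 rat windows of the same length, 22 held it, or 0.0657%. In Hspa5 it lies 43 to 25 bases before the annotated start. Hsp90b1 has a pair of them, at 176 to 158 and at 72 to 54 bases before the start, the second on the opposite strand. Creld2 has it at 145 to 127 bases before the start. ERSE-II was found in Hyou1 at 188 to 178 and at 88 to 78 bases before the start, and in Dnajb11 from 10 bases before the start up to it, against 17 of all windows, or 0.0508%. The UPRE core was found in Hyou1 only among these 8 genes, where it overlaps the upstream ERSE-II, and in 0.595% of all windows. No complete ERSE, ERSE-II or UPRE core was found in the windows of Pdia4, Fkbp11 and Sdf2l1. The short parts are common: CCACG was found in 7 of the 8 genes and in 31.6% of all windows, and CCAAT in 7 of the 8 genes and in 37.5% of all windows. TGATGNAA, a site of Atf4 with C/EBP factors, was found in 0 of the 8 genes and in 3.98% of all windows. Manf and Pdia6 were not analysed here for promoter sequence. A match is a run of letters and does not show that a factor binds there.

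**Figure D1:**
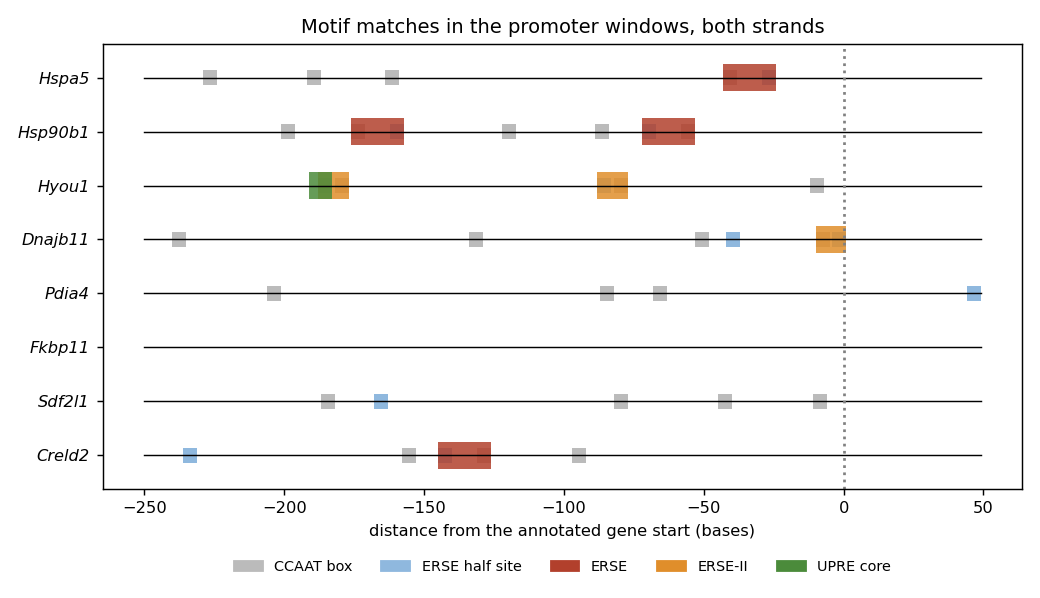
Position of motif matches on both strands in the promoter windows of 8 ER chaperone genes, with distance from the annotated gene start in bases on the x axis and 1 gene per line. Hyou1 is drawn for the printed window only. Full elements lie in Hspa5, Hsp90b1, Hyou1, Dnajb11 and Creld2, while Pdia4 and Sdf2l1 hold CCAAT and CCACG parts and Fkbp11 holds none of the motifs drawn.

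All values below are log2 intensities after background correction and quantile normalization of the 12 arrays together. Scanner flags marked every spot of the 10 genes good on every array, except 1 of 120 for Dnajb11 and 1 of 12 for Manf, and 0 spots were saturated. Over the whole array design, 42.67% to 55.86% of the gene spots on an array were flagged good, and the 75th percentile of background-subtracted signal was 133 to 387 units. Precision is limited by how few arrays there were. Per the barcodes in the file headers the 12 arrays lay on 3 slides, each with 2 arrays of each diet. Slide 1 held high protein replicates 1 and 2 and normal protein replicates 1 and 3, slide 2 high protein 4 and 6 and normal protein 5 and 6, and slide 3 high protein 3 and 5 and normal protein 2 and 4.

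Arrays stood apart in genes that mark position along the gut. Hoxb6 and Hoxb7, genes of more proximal gut, were above 10 in high protein replicates 3 and 4 and in normal protein replicate 6. In the other arrays neither exceeded 7.49. Hoxb13, a gene of the distal colon, was at 6.12 and 7.49 in those 2 high-protein arrays and at 6.18 in that normal-protein array. It was also low in normal protein replicates 3, 4 and 5, at 8.26, 5.83 and 9.32, where the remaining arrays were at 12 or above. Thus 4 of 6 high-protein arrays and 2 of 6 normal-protein arrays had high Hoxb13, and the diets were not balanced in it. Without the 3 arrays with high Hoxb6 and Hoxb7 the differences of the 10 genes ran from -0.61 for Sdf2l1 to -0.13 for Pdia4, and without all 6 arrays with Hoxb13 below 10 from -0.61 for Sdf2l1 to -0.15 for Hyou1. The tissue label was checked against markers. Transcripts of epithelium were abundant, with Cldn3 at 13.45 ± 0.36 on high protein and 13.48 ± 0.26 on normal protein (SD, n = 6 each). Those of smooth muscle were bright too, with Actg2 at 14.69 ± 0.38 on high protein and 14.70 ± 0.18 on normal protein (SD, n = 6 each). In such bulk samples, fewer cells of a type and less RNA per cell cannot be told apart.

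All 10 genes lay lower on high protein, by 0.17 to 0.57 on the log2 scale, with a median difference of -0.39, or 23.8% lower on this scale. The choice of genes fixes that direction, and 48.5% of all tested genes lay below 0. In 6 of the 10 genes each of the 6 high-protein arrays was under the mean of normal protein, against 5.53% of all genes. In 0 of the 10 did every high-protein array lie below every normal-protein array, against 0.0957% of all genes. Since this contrast chose the genes, nothing is read from either count. With limma and Benjamini-Hochberg adjustment over all 10449 genes, 0 genes passed 0.05 in either direction, or 0%, with a smallest adjusted p of 0.679. Unadjusted p-values under 0.05 numbered more: 309 genes were lower on high protein, or 2.96%, and 383 higher, or 3.67%. The median difference of all genes was 0.01, which quantile normalization holds near 0, and with 75th percentile scaling in its place it was -0.03. Background correction adds an offset of 50 units, which makes differences of dim genes look smaller than they are in signal.

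BiP, encoded by Hspa5 and read by probe A_44_P1054213, binds unfolded chains and holds the stress sensors inactive. In high-protein arrays it ran from 10.37 through a median of 10.84 to 11.20, and in normal-protein arrays from 10.91 through a median of 11.30 to 11.93, the form in which each gene's values are given below. The lowest value was high protein replicate 3 and the highest normal protein replicate 6, both among the arrays with high Hoxb6. Of the 6 high-protein arrays, 3 lay below every normal-protein array, and 4 of the 6 normal-protein arrays lay above every high-protein one. The means were 10.83 ± 0.31 on high protein and 11.36 ± 0.35 on normal protein (SD, n = 6 each), a difference of -0.53 ± 0.18 (SE) with a 95% interval of -0.91 to -0.15. Without the 3 arrays it was -0.37.

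Dnajb11 (ERdj3), read by probe A_42_P554157, is a J-domain protein that hands substrates to BiP and raises its ATPase activity. It ran from 8.25 through 8.39 to 8.90 on high protein, and from 8.62 through 8.76 to 8.85 on normal protein. The highest value of all 12 was a high-protein one, replicate 4, while the other 5 high-protein arrays lay below every normal-protein array. Its difference was -0.27 ± 0.10 (SE), from means of 8.47 ± 0.24 on high protein and 8.74 ± 0.08 on normal protein (SD, n = 6 each). This probe is spotted 10 times per array, and the 10 spot-wise differences ran from -0.39 to -0.19. The median SD between spots of 1 array was 0.21. Without the 3 arrays with high Hoxb6 and Hoxb7, replicate 4 of high protein among them, the Dnajb11 difference was -0.36.

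Hyou1 (Grp170), read by probe A_43_P11333, releases ADP from BiP and is a chaperone of its own. Its values ran from 8.92 through 9.17 to 9.37 on high protein and from 9.21 through 9.25 to 9.53 on normal protein. Of the high-protein arrays 4 lay below every normal-protein array, while only normal protein replicate 6 lay above every high-protein array. Its difference was the smallest of the 10, at -0.17 ± 0.09 (SE), and its 95% interval of -0.36 to 0.03 included 0. Sdf2l1 sits in a complex with ERdj3 and BiP and is induced by ER stress. On high protein it ran from 8.93 through 9.45 to 9.56, and on normal protein from 9.49 through 9.94 to 10.06. The 5 highest values were all normal-protein arrays, and normal protein replicate 6 alone lay among the high-protein values. The means were 9.36 ± 0.23 on high protein and 9.88 ± 0.20 on normal protein (SD, n = 6 each), and the difference -0.52 ± 0.12 (SE). A second probe for Sdf2l1, A_64_P019401, gave -0.60 against -0.52 for A_64_P012902, and the diet-centred values of both probes correlated at 0.74 over the 12 arrays.

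Hsp90b1 encodes GRP94, the Hsp90 of the ER, which matures integrins and Toll-like receptors among other clients. Probe A_43_P15719 read 9.28 to 9.75 with a median of 9.44 on high protein, and 9.71 to 10.04 with a median of 9.78 on normal protein. High protein replicate 1, on slide 1, was the only high-protein array to reach the normal-protein range. The difference was -0.36 ± 0.09 (SE), from 9.45 ± 0.17 on high protein and 9.81 ± 0.12 on normal protein (SD, n = 6 each).

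The disulfide isomerases Pdia4 (ERp72) and Pdia6 (P5) make and reshuffle disulfide bonds, and Pdia6 also binds BiP and the Ire1 sensor. Pdia4, by probe A_44_P493956, ran from 6.94 through 7.12 to 7.48 on high protein and from 7.06 through 7.41 to 7.65 on normal protein. The groups overlapped widely and the 95% interval of the difference, -0.23 ± 0.11 (SE), was -0.47 to 0.01. Without the 3 arrays that stood apart the Pdia4 difference was -0.13. Pdia4 is dim, at 73 to 143 units above background. Its difference was -0.39 with plain background subtraction, and -0.38 in the authors' own value table with its IDs moved by 1 row. Pdia6, by probe A_44_P148407, ran from 10.04 through 10.25 to 10.88 on high protein and from 10.44 through 10.71 to 11.08 on normal protein. High protein replicates 1 and 4 lay within the normal-protein range and the other 4 below it. The Pdia6 difference was -0.41 ± 0.15 (SE).

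Fkbp11 is a prolyl isomerase of the ER that is prominent in secretory cells. By probe A_44_P192543 it ran from 6.64 through 6.82 to 7.23 on high protein, and from 6.96 through 7.46 to 7.84 on normal protein. Only high protein replicate 1 reached above the lowest normal-protein array, replicate 2. The difference of -0.57 ± 0.14 (SE), from 6.87 ± 0.20 on high protein and 7.43 ± 0.29 on normal protein (SD, n = 6 each), was the most negative of the 10. Fkbp11 is also dim, at 52 to 139 units above background, and its difference depends on the background step: it was -0.97 with plain background subtraction, and -0.97 in the authors' own value table with its IDs moved by 1 row. Without the 6 arrays with low Hoxb13 it was -0.25.

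Manf and Creld2 are small secreted or ER-retained proteins that are released under ER stress. Manf, by probe A_64_P074332, ran from 8.60 through 8.82 to 9.14 on high protein and from 9.10 through 9.19 to 9.46 on normal protein. High protein replicate 5, at 9.14, was the only high-protein array within the normal-protein range. The Manf difference was -0.40 ± 0.10 (SE), from 8.84 ± 0.19 on high protein and 9.25 ± 0.15 on normal protein (SD, n = 6 each). Creld2, a disulfide isomerase-like protein read by probe A_43_P16457, ran from 7.03 through 7.54 to 7.79 on high protein and from 7.53 through 7.92 to 8.19 on normal protein. Its 4 highest values were all on normal protein, while the lowest normal-protein array, replicate 6, lay level with the middle of the high-protein ones. The Creld2 difference was -0.38 ± 0.15 (SE). Creld2 too is rather dim, at 87 to 263 units above background. Its difference was -0.53 with plain background subtraction, and -0.51 in the value table with its IDs moved.

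**Figure D2:**
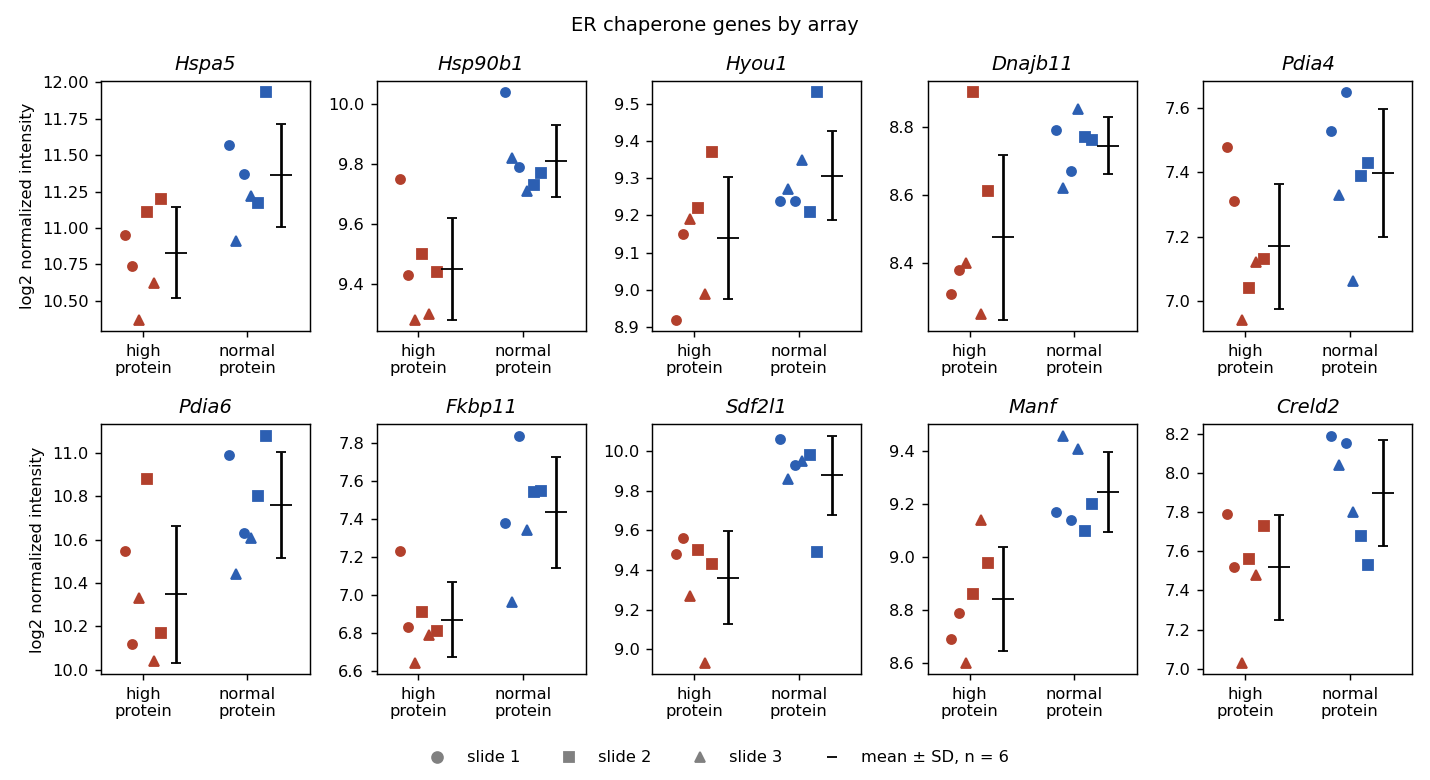
Log2 normalized intensity of each ER chaperone gene on the 12 arrays, high protein left of normal protein, with points shaped by slide and the mean ± SD (n = 6) beside them; each panel has its own y axis. The high-protein points sit lower in every panel and overlap the normal-protein points in all 10 genes, by 1 array in Hsp90b1 and by more in Pdia4.

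Across all 10 genes, the mean log2 level per array was 8.61 to 8.95 on high protein and 9.07 to 9.30 on normal protein. These ranges do not overlap, which the choice of the genes makes likely and which is no sign of stability. The lowest of these means belonged to high protein replicates 3 and 5, both on slide 3, at 8.61 and 8.66. Relative to the mean of their own diet, those arrays were low in 9 of the 10 genes each, and high protein replicate 4 was high in 9. Without the 3 arrays with high Hoxb6 and Hoxb7, the median difference of the 10 genes was -0.36, and without the 6 with low Hoxb13 it was -0.39.

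Each slide held both diets, with 2 arrays of high protein and 2 of normal protein. Within slide 1 all 10 genes were below 0, with a median difference of -0.44 and a range of -0.62 to -0.20. Slide 2 showed less, with 9 genes below 0 and a median of -0.28. There Creld2 was at 0.04, Dnajb11 at -0.01 and Hyou1 at -0.07, while Fkbp11 was at -0.69. On slide 3 all 10 were below 0 again, with a median of -0.45 and Sdf2l1 at -0.81. In all, 9 of 10 genes were below 0 on every slide, against 13.7% of all genes. Both high-protein arrays lay below both normal-protein arrays in 10 genes on slide 1, 4 on slide 2 and 9 on slide 3, against 18.5%, 16% and 17.6% of all genes. All 12 arrays had been used to choose the genes, so these splits are parts of the same contrast.

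**Figure D3:**
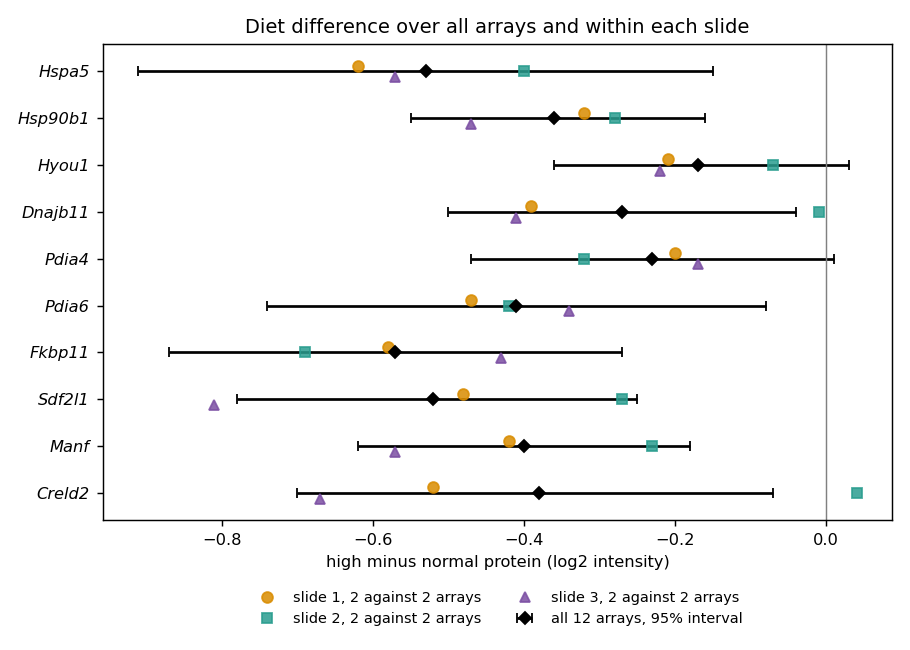
Difference high minus normal protein in log2 intensity for each gene, over all 12 arrays (black diamond with its 95% interval) and within each slide (coloured symbols, 2 arrays against 2). The slide values lie below 0 except Creld2 on slide 2 at 0.04, and the intervals of Hyou1 and Pdia4 reach past 0.

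The level of the genes by slide and by colon position had no part in their choice and was tested with limma over all genes. By slide, with diet in the fit, 0 of the 10 passed after Benjamini-Hochberg adjustment, where 0.0191% of all genes did. At an unadjusted limma p under 0.05, 3 of the 10 differed between slides, where 12.3% of all genes did. Pdia4 averaged 7.49, 7.25 and 7.12 on slides 1 to 3 (limma adjusted p = 0.234). Hspa5 averaged 11.16, 11.35 and 10.78 (limma adjusted p = 0.292), and Fkbp11 7.32, 7.20 and 6.93 (limma adjusted p = 0.378). Slide 3 was the lowest in each of these 3 genes. Since each slide held the diets equally, slide in the fit leaves the diet differences as they are by construction and alters only their errors, which then ran from 0.07 for Pdia4 to 0.14 for Pdia6 (SE).

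Whether the diet difference itself varied between slides was tested by the interaction of diet and slide. The genes were chosen for their diet difference over these same arrays, which can favour differences alike between slides, so a low count is no support for evenness. The interaction passed in 0 of 10 genes (0.00957% of all genes), and at an unadjusted p under 0.05 in 1 (4.31% of all genes). That was Creld2 (limma adjusted p = 0.912), with -0.52, 0.04 and -0.67 on slides 1 to 3. Colon position was scored as the level of Hoxb13 less the average level of the other 2 Hox genes, Hoxb6 and Hoxb7. Its slope passed in 0 of 10 genes, where 5.94% of all genes passed, and was past an unadjusted p of 0.05 in 1, where 20% of all genes were. The steepest was that of Creld2, at 0.045 ± 0.014 (SE) per unit of score (limma adjusted p = 0.0862). With that score in the fit the diet differences ran from -0.15 for Hyou1 to -0.57 for Fkbp11.

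Whether the genes moved together over arrays was asked after the mean of each diet was removed, so that the diet difference could not create the relation. The correlations below are descriptions over the same 12 arrays, which share slides, labelling and normalization. Of the 45 pairs, 31 had a positive Pearson r, against 50.1% of all gene pairs on the array. The median r was 0.16, against 0 for all gene pairs, whose upper quartile began at 0.27. There were 8 pairs above 0.5, where 9.25% of all gene pairs were. Thus most pairs of these chaperones were weakly related within a diet, and some ran opposite ways.

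The closest pair was Hsp90b1 with Creld2, at r = 0.69 and Spearman's rho = 0.83, and at r = 0.62 without the 2 arrays farthest from the median of Hsp90b1. Pdia4 was at r = 0.65 with Hsp90b1, which was 0.39 without the same 2 arrays, at 0.56 with Creld2 and at 0.65 with Fkbp11. Hspa5 was at r = 0.62 with Pdia6, 0.51 with Fkbp11, 0.48 with Dnajb11, 0.48 with Hyou1 and 0.43 with Hsp90b1. These partners did not form a set among themselves, with Fkbp11 at -0.24 with Hyou1 and 0.01 with Dnajb11, though Hyou1 was at 0.56 with Dnajb11. Dnajb11 in turn correlated with Pdia6 at r = 0.60, which was 0.04 without the 2 arrays farthest from the median of Dnajb11. Manf stood aside, with r = -0.47 with Pdia6, -0.46 with Fkbp11 and -0.38 with Pdia4. Without the 2 arrays farthest from the median of the partner gene these were -0.71, -0.24 and -0.12. Against the mean of the other 9, Hspa5 was the most alike at r = 0.73 and Hsp90b1 next at 0.61, while Hyou1 was at -0.03 and Manf at -0.32.

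Within high protein the median r was 0.36 over 6 arrays with 32 positive pairs, and within normal protein it was 0.03 with 24. That difference was not tested. The median r over both diets was 0.29 without normal protein replicate 6, and 0.30 without the 3 arrays with high Hoxb6 and Hoxb7. It was 0.51 over the 6 arrays left without those of low Hoxb13. Normal protein replicate 6 was the highest of all for Hspa5, Hyou1 and Pdia6 and the lowest on its diet for Sdf2l1 and Creld2.

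**Figure D4:**
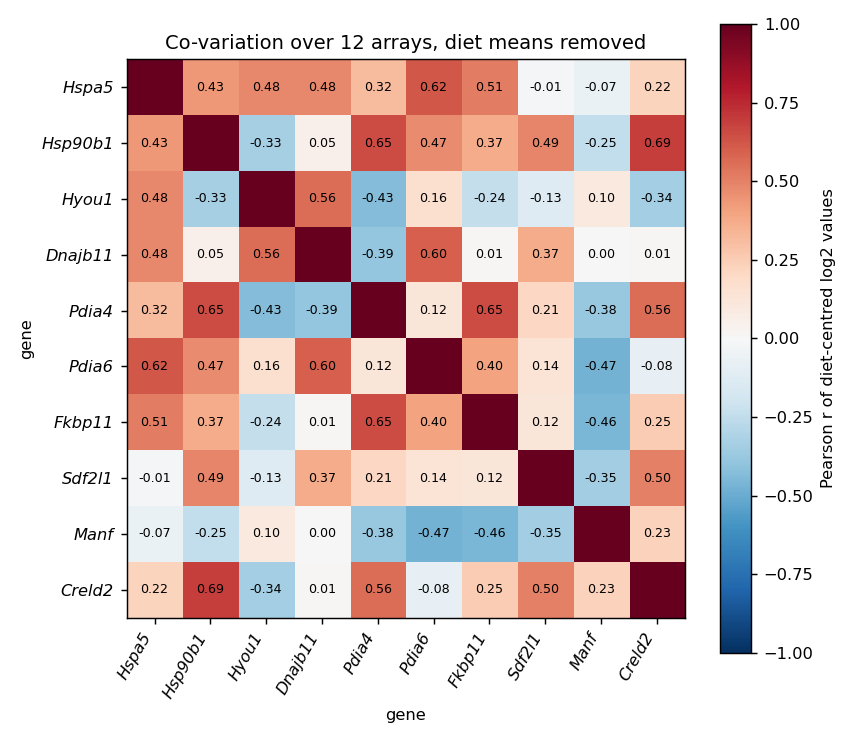
Pearson r between each pair of the 10 genes over 12 arrays after the mean of each diet was removed, red for positive and blue for negative. Values run from -0.47 (Pdia6 with Manf) to 0.69 (Hsp90b1 with Creld2), with the row and column of Manf mostly blue.

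When all 10448 other genes were ranked by their correlation with Hspa5, the chaperones were not at the top. Pdia6 ranked 552, Fkbp11 1154, Hyou1 1380 and Dnajb11 1410, and Sdf2l1 and Manf ranked 5394 and 5880. None of the 10 had another of them among its 100 closest genes. Among the closest named genes to Hspa5 were Mrpl38 (r = 0.98), Nup214 (0.93), Ccdc101 (0.92), Colgalt1, U2af2 and Ndufb6 (0.90 each), and Ctsb, Zpr1 and Ppp1r14b (0.89 each). Their own diet differences ran from -0.16 for Ndufb6 to 0.16 for U2af2. Among the closest to the mean of the 10 were Tufm (r = 0.93), Slc35a4, Mrps11 and Tbc1d10b (0.91 each), Ctsb (0.90), Stxbp5 and Smg5 (0.89 each) and Zbtb48 (0.88). Only Zbtb48 of these had an unadjusted limma p under 0.05 for diet, with a difference of 0.20. None of these genes is in the ER lists described next.

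Related genes were taken from lists by role, 201 tested genes in all. They were not all of the ER: 24 were Atf4 targets, 31 chaperones of the cytosol and 7 of mitochondria. At an unadjusted limma p under 0.05, 14 were lower on high protein, or 6.97%, and 1 was higher, or 0.498%, where the shares over all genes were 2.96% and 3.67%. After Benjamini-Hochberg adjustment 0 passed. In all 133 of the 201 lay below 0, with a median of -0.05, where 48.5% of all genes lay below 0. On slides 1 to 3 the median was -0.10, -0.03 and -0.01 for other ER folding genes. It was -0.12, -0.01 and -0.01 for protein entry and N-glycosylation, and -0.16, 0 and -0.12 for transport between ER and Golgi. ER-associated degradation was at -0.08, -0.01 and -0.08. Sensors and factors of the unfolded protein response were at -0.10, 0.04 and 0.08. Atf4 targets were at 0, 0.01 and -0.05, cytosolic chaperones at 0.01, -0.11 and 0.02, and mitochondrial chaperones at 0.09, -0.13 and -0.09. Without the 3 arrays with high Hoxb6 and Hoxb7, 26 were lower, or 12.9%, and 4 higher, or 1.99%, where the shares over all genes had risen to 6.97% and 5.74%. Without the 6 arrays with low Hoxb13, 6 were lower, or 2.99%, against 2.62% of all genes, and 1 was higher, against 2%. That setting left 4 high-protein and 2 normal-protein arrays. Within slides 1 to 3 alone, 13, 4 and 4 of the 201 were lower, where 300, 222 and 263 of all 10449 genes were.

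Among 30 other ER folding genes, 21 were below 0 and the median was -0.09. At an unadjusted limma p under 0.05, 4 were lower, where 2.96% of all genes were. Tmx4, a transmembrane thioredoxin, was at 7.31 ± 0.14 on high protein and 7.71 ± 0.16 on normal protein (SD, n = 6 each), a difference of -0.40 ± 0.09 (SE). Serp1, which stabilizes membrane proteins in the ER, differed by -0.35 ± 0.13 (SE), and the goblet cell disulfide isomerase Agr2 by -0.40 ± 0.17 (SE). Their limma adjusted p-values were 0.679, 0.701 and 0.726. The fourth was the cyclophilin Ppib at -0.19, named outside the rule after its value was seen. P4hb, the classic protein disulfide isomerase, was at -0.05 ± 0.11 (SE) and was likewise named after its value was seen.

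Protein entry and N-glycosylation had the most such genes, 7 of 40, where 2.96% of all genes were lower. Of the 40, 27 were below 0, with a median of -0.04. Sec61g, a subunit of the translocation channel, ran from 10.74 to 10.98 on high protein and from 11.00 to 11.21 on normal protein, with no overlap, and differed by -0.26 ± 0.07 (SE). Ostc, of the oligosaccharyltransferase, ran from 9.30 to 9.64 on high protein and from 9.67 to 9.95 on normal protein, again with no overlap, and differed by -0.34 ± 0.09 (SE). Krtcap2, of the same enzyme, differed by -0.28 ± 0.08 (SE). Each of these 3 had a limma adjusted p of 0.679. They were named for the smallest limma p for diet in their list, which favours separated groups. Nothing is therefore read from the lack of overlap, found lower on high protein in 0.0957% of all genes.

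Transport between ER and Golgi had 26 of 32 genes below 0 with a median of -0.09. The cargo receptor subunit Mcfd2 was at -0.17 ± 0.06 (SE, limma adjusted p = 0.701), and the cargo receptors Tmed10 and Tmed3 at -0.19 ± 0.09 and -0.25 ± 0.13 (SE), neither past an unadjusted 0.05. ER-associated degradation had 15 of 22 below 0. Hm13, the signal peptide peptidase, was at -0.24 ± 0.09 (SE, limma adjusted p = 0.702), and Rnf5 and Ube2j2 at -0.21 ± 0.14 and -0.14 ± 0.10 (SE).

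Of the sensors and factors of the unfolded protein response, 0 of 16 passed an unadjusted 0.05 and 9 were below 0. Xbp1 itself was at 9.39 ± 0.26 on high protein and 9.70 ± 0.26 on normal protein (SD, n = 6 each), a difference of -0.30 ± 0.14 (SE, limma adjusted p = 0.726). Mbtps1, the protease that cuts Atf6, was at 0.17 ± 0.12 (SE), and Nfyb, a subunit of the factor that binds CCAAT, at -0.11 ± 0.08 (SE). Atf6 was at 0.16 ± 0.13 (SE) and was named after its value was seen. The probes report total transcript, so splicing of Xbp1 and cleavage of Atf6 were not measured.

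Among targets of Atf4, 15 of 24 genes were below 0, and 0 were lower and 1 higher at an unadjusted 0.05. That was Cebpb, a transcription factor, at 0.24 ± 0.10 (SE, limma adjusted p = 0.726). Ddit4, an inhibitor of mTORC1, was at 0.27 ± 0.12 (SE), and Slc3a2, an amino acid carrier subunit, at -0.16 ± 0.10 (SE). Of chaperones in the cytosol 17 of 31 were below 0 with a median of -0.01. The small heat shock protein Hspb1 alone was lower at an unadjusted 0.05, by -0.57 ± 0.19 (SE, limma adjusted p = 0.695). Hspa1b, an inducible Hsp70, was at -0.43 ± 0.24 (SE), and Ahsa1, an Hsp90 activator, at 0.09 ± 0.07 (SE). In mitochondria 4 of 7 were below 0 with a median of -0.01, and the values were 0.17 ± 0.09 for Lonp1, -0.18 ± 0.11 for Grpel1 and -0.13 ± 0.13 for Hspe1 (SE).

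**Figure D5:**
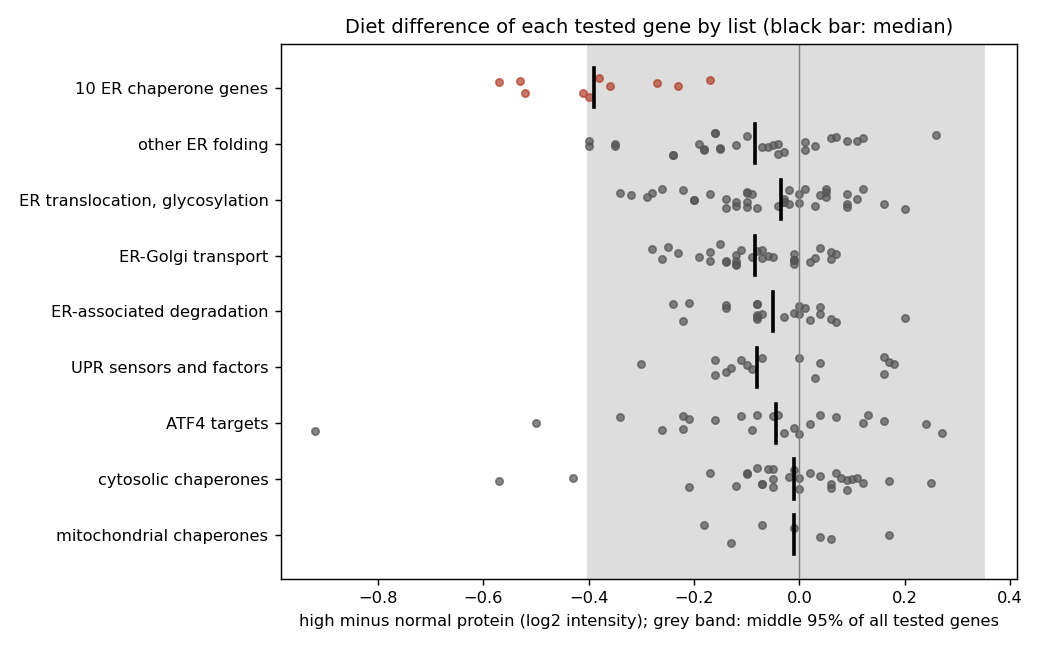
Diet difference (high minus normal protein, log2) of each tested gene in the 10 ER chaperone genes and in 8 lists of related genes, with the median of each as a black bar and the middle 95% of all tested genes, -0.40 to 0.35, as a grey band. The chaperones have a median of -0.39 and the lists have medians from -0.09 to -0.01.

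A complete ERSE or ERSE-II was present in the windows of 38 genes, of which 5 are described above and 17 others were tested. Of those 17, 10 were below 0, the median was -0.02, 0 were lower and 1 was higher at an unadjusted limma p under 0.05. These genes were looked up after the diet values had been seen. The higher one was Rcl1, which acts in ribosome assembly, at 0.24 ± 0.08 (SE, limma adjusted p = 0.695). Among those with a known place in the stress response, Xbp1 was at -0.30, the lectin chaperone Calr at -0.15 and the BiP co-chaperone Dnajc3 at 0.09. The degradation factors Derl3 and Herpud1 were at -0.22 and 0.20.

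Markers of secretory and other cells were set beside the chaperones, since such cells hold much ER. Of 22 goblet cell markers 20 were tested and 15 of them lay below 0, with a median of -0.18. Their summed linear level ran from 37000 to 76300 on high protein and from 53300 to 96600 on normal protein, so the ranges overlapped. Muc2, the main mucin, was at 13.55 ± 0.88 on high protein and 14.00 ± 0.52 on normal protein, and Clca1 at 12.89 ± 0.95 on high protein and 13.41 ± 1.15 on normal protein (SD, n = 6 each). At an unadjusted limma p under 0.05, 2 of the 20 were lower, where 2.96% of all genes were. These were Agr2 as above and the lectin Zg16 at -1.12 ± 0.33 (SE), the second named after its value was seen. With the diet means removed, the median r of the goblet markers with the mean of the 10 chaperones was 0.03 over the 12 arrays, and 11 of 20 were positive.

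Plasma and B cell markers that were matched to a gene on the array were mostly dim. Jchain, Ighm, Igha and Igkc were listed but not matched, so they have no values here. Of 22 listed, 8 were tested, 7 of these were below 0, and the summed level ran from 2230 to 3960 on high protein and from 2490 to 4160 on normal protein. Sdc1, which epithelium also expresses, made up 54.6% to 73.2% of that sum, and the other 7 summed to 750 to 1790 on high protein and 667 to 1770 on normal protein. Ms4a1, Irf4 and Tnfrsf13b were flagged good on 0 arrays. Sdc1 was at 10.87 ± 0.28 on high protein and 11.12 ± 0.18 on normal protein, and Pou2af1 at 8.17 ± 0.75 on high protein and 8.71 ± 0.86 on normal protein (SD, n = 6 each). The median r of this list with the chaperone mean was 0.04.

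Other lists also had most of their genes below 0 over all 12 arrays. The median was below 0 on every slide for smooth muscle and macrophage markers, and not on every slide for the others. The median differences on slides 1 to 3 were -0.27, 0.14 and -0.57 for absorptive cell markers, -0.23, 0.30 and -0.27 for general epithelial markers, and -0.13, 0.09 and -0.21 for the goblet markers above. Smooth muscle markers were at -0.04, -0.58 and -0.02, plasma and B cell markers at -0.24, 0 and -0.51, and macrophage markers at -0.41, -0.21 and -0.26. Macrophage markers were below 0 in 12 of 13, with sums of 12600 to 22600 on high protein and 16300 to 23600 on normal protein, and C1qb at -0.20 ± 0.20 and Lyz2 at -0.28 ± 0.20 (SE). Of these 13, 2 were lower at an unadjusted limma p under 0.05, where 2.96% of all genes were. They were Csf1r and Itgam, at -0.38 and -0.36, named after their values were seen. Smooth muscle markers were below 0 in 12 of 12, with sums of 41600 to 85000 on high protein and 64100 to 92000 on normal protein. Actg2 was at -0.01 and Myh11 at -0.09. Of these 12, 1 was lower at an unadjusted limma p under 0.05, against the same 2.96% of all genes. It was Pln, at -0.74, named after its value was seen. Absorptive cell markers were below 0 in 14 of 17, with sums of 46700 to 109000 on high protein and 53900 to 92000 on normal protein, and Guca2a at -0.42 ± 0.24 and Car1 at -1.62 ± 0.85 (SE). General epithelial markers were below 0 in 10 of 13, with sums of 49200 to 72500 on high protein and 45900 to 74200 on normal protein. With the diet means removed, the median r with the chaperone mean was 0.26 for general epithelial markers, where 11 of 13 were positive. For smooth muscle markers it was -0.29, where 2 of 12 were positive. It was 0.11 for absorptive cell markers and 0.10 for macrophage markers. Pancreatic acinar cells, another tissue rich in these chaperones, were hardly represented: 1 of 14 markers was tested, Ctrb1, with a difference of 0. The part that any of these cell types played in the chaperone differences was not tested.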

How the data were processed

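RNA was measured on 12 single-colour Agilent whole rat genome arrays, 6 of high protein and 6 of normal protein. Per the file headers, the deposited files hold linear intensity for each spot (mean pixel and median local background), not normalized. Deposited flags are a score in which 100 marks a good spot, and a deposited percent gives the saturated pixels of a spot. The authors' value table is on a log2 scale per the labels, and the submitters' processing notes name RMA. Its IDs are displaced by 1 row: against the scanner values its columns correlated at 0.097 to 0.113 as given and at 0.929 to 0.963 with the IDs moved. Its column medians were 4.36 to 4.45, and its centring stays unknown, so it served only as an alternative.

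Background was corrected with normexp (offset 50), the 12 arrays were quantile normalized, control spots were left out and spots of a probe averaged (limma 3.58.1, R 4.3.3). A probe was kept where at least 0.5 of its spots were good on at least 6 of 12 arrays, and the brightest kept probe stood for its gene. Names came from RefSeq accessions in a GRCr8 gene table, otherwise from the array. The 1467 kept probes without a name were left out. Diet, slide, their interaction and colon position were fitted with lmFit and eBayes, Benjamini-Hochberg adjusted over 10449 genes, and tested on simulated data. No 2 arrays held identical values. Deviations of same-numbered replicates correlated at -0.11 to 0.40, above 0.1 in 3 of 6 pairs but not in all, so the numbers were not taken as pairs. Slide, which holds both diets equally, was an alternative block.

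The genes, lists and tests were chosen with earlier results of these data known. Named besides the 10 genes are up to 3 genes per ER or chaperone list with the smallest limma p, the 10 genes most correlated with Hspa5 and with the mean of the 10, and up to 2 markers per cell type with the highest mean. Some genes of that rule are not reported here. Others are said to be named after their values were seen. Alternatives covered normalization, background, filter, probe choice, slide, replicate number, position and single arrays.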

Additional observations from a re-analysis of the deposited data

Results flagged for a closer look

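Each gene was examined for a single array far from the others of its diet, 20 groups of 6 arrays in all, and 2 stood out. Chance alone marks about 1 in 20 groups. Hsp90b1 was at 10.04 in normal protein replicate 1, where the next array of that diet was at 9.82. Sdf2l1 was at 9.49 in normal protein replicate 6, where the next array of that diet was at 9.86. The first lies away from the high-protein arrays and the second among them.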

How the results depend on the processing

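The 10 genes were chosen as lower on high protein in these arrays, so their direction under other settings is no support. Creld2 on slide 2, at 0.04, was the 1 value above 0. Their median ran from -0.45 to -0.28 over 15 alternatives and from -0.43 to -0.34 with single arrays left out. Blocks by slide or replicate number hold both diets equally and leave it at -0.39 by construction. The replicate block gave 377 genes lower and 436 higher at an unadjusted p, and 16 ER and chaperone genes lower and 2 higher. Of the replicate numbers, 3 of 6 correlated best with their own partner.

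Counts moved more, and the cause was not tested. Genes lower at an unadjusted p numbered 309, and 482 with normexp and 75th percentile scaling, 541 without a filter on flags and 728 without the 3 arrays with high Hoxb6 and Hoxb7. That setting, and leaving out the 6 arrays with low Hoxb13, were chosen after seeing the data. Genes higher numbered 383, and 716 without the filter, 600 without the 3 arrays, 209 without the 6, 212 on slide 1 and 231 on slide 3. Slide 3, and leaving out the 6 arrays, each gave 1 gene past the adjusted threshold. ER and chaperone genes lower numbered 14, and 26 without the 3 arrays, 6 without the 6, 4 on slide 2 and 4 on slide 3. Of the 201 tested, 13 were lower on slide 1, where 300 of all 10449 genes were. The 4 on slide 2 stood beside 222 of all genes, and the 4 on slide 3 beside 263. On slides 2 and 3 the share of the lists was thus not above that of all genes. ER and chaperone genes higher numbered 1, and 0 with plain background subtraction, in the value table, with probes good on all 12 arrays and on slide 3. They numbered 2 with 75th percentile scaling, without the filter or with slide as a block, 3 with the position score, and 4 without the 3 arrays or on slide 2. With single arrays left out the counts ran from 207 to 446, 279 to 506, 12 to 21 and 0 to 4. The last was 4 without high protein replicate 3, 2 without normal protein replicate 1 or 6, and 0 without high protein replicate 4 or normal protein replicate 4 or 5. The median correlation of the 10 genes ran from 0.12 to 0.29. Counts of 0 for slide, interaction and position held in each alternative run. For the interaction this is no support, since the diet contrast chose the genes. Manf could not be given with probes good on all 12 arrays. Over the alternatives run, Fkbp11, dim at 52 to 139 units above background, ran from -0.97 to -0.25, and Creld2 from -0.67 to 0.04.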
